A study of Arabidopsis thaliana with 22 samples.

Results

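The 6 genes described here act where Arabidopsis thaliana breaks down glucosinolates, and they were chosen from measured values of these libraries. They are the myrosinases TGG1 (AT5G26000) and TGG2 (AT5G25980), the epithiospecifier protein gene ESP (AT1G54040), the epithiospecifier modifier ESM1 (AT3G14210), the nitrile-specifier gene NSP1 (AT3G16400) and the lectin gene PBP1 (AT3G16420). They are 6 of the 24185 loci in the count table, and all 6 were among the 18149 loci with at least 1 CPM (counts scaled to a common library total) in at least 2 libraries. Levels are given per library as CPM scaled with TMM factors, which correct library totals for composition. Log2 values were taken after adding 0.5 CPM.

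The 22 RNA sequencing libraries came from whole seedlings grown for 14 days on soil in a 16 h day at 22 °C and an 8 h night at 18 °C. Seedlings had received ultraviolet light of 312 nm, a UV-B wavelength, at 4.35 W per square metre. Mock-treated seedlings served as controls, and both kinds were collected after 3 h. How long the lamps were on is not stated in the labels. All groups are natural inbred accessions without a named mutation or transgene. The groups labelled UV were Ba-1, C24, Lip-0, Mh-0 and T1080 with 2 libraries each and Got-7 with 1. The groups labelled mock were Ba-1, C24, Got-7, Lip-0 and Mh-0 with 2 libraries each and T1080 with 1. Nothing in the labels tells whether replicates were grown as separate plants. The p-values below set differences between labelled groups against the spread of these samples alone, and that spread may be technical. Total counts ran from 3539510 to 20903894 per library, with a median of 9264888.5.

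Samples are numbered 1 to 22 in the sample descriptions, and this numbering runs through the labels in order. Ba-1 has Samples 1 and 2 (mock) and 3 and 4 (UV). C24 has Samples 5 and 6 (mock) and 7 and 8 (UV), and Got-7 has Samples 9 and 10 (mock) and 11 (UV). Lip-0 has Samples 12 and 13 (mock) and 14 and 15 (UV), Mh-0 has Samples 16 and 17 (mock) and 18 and 19 (UV), and T1080 has Samples 20 (mock) and 21 and 22 (UV).

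The values of these 22 libraries fall into another arrangement, of 6 column blocks in each of 2 sets of columns, and it cuts across the labels. Block A holds Samples 1 and 3 of the first set and Sample 12 of the second. Block B holds Samples 2 and 4, and 13 and 14. Block C holds Samples 5 and 6, and 15 and 16. Block D holds Sample 7, and 17 and 18. Block E holds Samples 8 and 9, and 19 and 20. Block F holds Samples 10 and 11, and 21 and 22. Samples 1 to 11 hold 5 libraries labelled UV and 6 labelled mock, all from Ba-1, C24 and Got-7. Samples 12 to 22 hold 6 labelled UV and 5 labelled mock, all from Lip-0, Mh-0 and T1080. Of the 10 labelled groups with 2 libraries, 2 (C24 mock and T1080 UV) lie within 1 block and 1 set. Every other labelled group of 2 is split between blocks, and each block joins libraries of 2 or more labelled accessions. No library was given another condition from its values.

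The blocks were checked on the 18117 tested loci that are neither among the 6 genes nor in the list of other breakdown genes. The nearest library, by Pearson correlation of log2 levels, was in the same block and set for 20 of the 20 libraries that have a partner there, and in the same labelled group for 4 of the 20 libraries that have a labelled replicate. Once the mean of each set was removed, the nearest library of the other set was in the same block for 22 of 22 libraries. Correlations ran from 0.971 to 0.994 within a block and set, from 0.908 to 0.968 between blocks of 1 set, and from 0.821 to 0.899 within a block between the sets. These values describe an arrangement that was itself found in this table. Differences between blocks and between sets are therefore given below as values, with no test.

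Glucosinolates are sulfur-containing thioglucosides that members of the cabbage order store apart from the enzymes that cleave them. When tissue is damaged, myrosinases remove the glucose, and the unstable product rearranges into an isothiocyanate unless a specifier protein is present. ESP directs the reaction to epithionitriles and nitriles, the NSP proteins direct it to simple nitriles, and ESM1 favours isothiocyanates over nitriles. TGG1 and TGG2 are the myrosinases of leaves and stems, found in guard cells and in myrosin cells along the phloem. PBP1 is a jacalin-type lectin that binds PYK10, a beta-glucosidase stored in endoplasmic reticulum bodies.

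TGG1 and TGG2 are neighbours on chromosome 5 in assembly TAIR10.1, at chr5:9079452-9082384 on the minus strand and chr5:9072708-9075777 on the plus strand, with 3674 bp between them. ESP lies at chr1:20170715-20173949 on the minus strand. ESM1 lies at chr3:4729399-4731847 on the plus strand. NSP1 (chr3:5566083-5568545) and PBP1 (chr3:5579290-5581032) lie on the plus strand with 10744 bp between them. The 4 promoters below are shown because TGG1 and TGG2 differ in level by far more in some blocks than in others, and because ESP and ESM1 are the members that stand in opposite positions in block A. Each runs 5′ to 3′ from 250 bases before to 50 bases after the annotated gene start, in the RefSeq reference sequence (accession Col-0, TAIR10.1), and the accessions' own sequences were not used here. Capitals mark the letters TATAAA and the W-box core TTGAC on either strand.
TGG1 (chr5:9082335-9082634, minus strand): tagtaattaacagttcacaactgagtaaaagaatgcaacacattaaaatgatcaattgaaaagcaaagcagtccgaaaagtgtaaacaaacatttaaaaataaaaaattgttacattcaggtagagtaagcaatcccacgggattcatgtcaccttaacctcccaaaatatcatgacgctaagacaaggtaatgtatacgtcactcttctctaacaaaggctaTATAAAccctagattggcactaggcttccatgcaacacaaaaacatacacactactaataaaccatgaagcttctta
TGG2 (chr5:9072458-9072757, plus strand): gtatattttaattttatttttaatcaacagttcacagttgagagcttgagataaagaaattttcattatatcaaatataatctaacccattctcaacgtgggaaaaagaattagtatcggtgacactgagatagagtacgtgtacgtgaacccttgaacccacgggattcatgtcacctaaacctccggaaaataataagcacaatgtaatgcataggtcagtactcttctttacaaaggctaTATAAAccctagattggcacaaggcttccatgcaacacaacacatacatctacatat
ESP (chr1:20173900-20174199, minus strand): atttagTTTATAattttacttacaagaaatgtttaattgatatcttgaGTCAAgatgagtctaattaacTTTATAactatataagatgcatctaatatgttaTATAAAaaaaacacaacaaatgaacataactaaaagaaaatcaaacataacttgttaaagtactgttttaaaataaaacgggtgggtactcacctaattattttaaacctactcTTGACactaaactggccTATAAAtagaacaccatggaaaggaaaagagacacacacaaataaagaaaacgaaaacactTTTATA
ESM1 (chr3:4729149-4729448, plus strand): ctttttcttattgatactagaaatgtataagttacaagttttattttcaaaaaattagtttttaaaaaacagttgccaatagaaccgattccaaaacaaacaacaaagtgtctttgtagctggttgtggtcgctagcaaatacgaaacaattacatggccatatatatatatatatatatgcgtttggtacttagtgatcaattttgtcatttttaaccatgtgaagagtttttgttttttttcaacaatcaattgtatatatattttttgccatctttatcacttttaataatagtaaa

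The TGG1 and TGG2 windows were alike in sequence, with 204 identical bases of 260 aligned (78.5%). Their longest shared run had 30 bases, acaaaggctatataaaccctagattggcac, and starts 37 bases before the TGG1 gene start and 17 bases before that of TGG2. ESP and ESM1 windows were identical at 58.8% of aligned bases, with a longest shared run of 8. TATAAA occurred in 4 of the 6 windows (TGG1, TGG2, ESP and PBP1) and in 52.1% of 27443 windows of the same length over all genes. TTGAC occurred in the ESP window only among the 6, starting 202 and 34 bases before the gene start, and in 50.5% of all windows. The G-box CACGTG was in 0 of the 6 windows and in 7.68% of all, and the longer W-box TTGACC, which contains the core, in 0 of the 6 and in 14.2% of all. A match of letters is a description of the window and not evidence of binding.

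Gene sequences bear on how reads can be assigned. Transcripts of TGG1 and TGG2 were identical at 82.8% of aligned bases, but shared only 6 of the 1892 stretches of 50 bases in TGG1 (0.317%). NSP1 shared 27.7% of its stretches of 50 bases with its tandem copy NSP4, so its counts are uncertain to the extent that reads were split between them. It shared 0.945% with NSP3 and 0 with PBP1. PBP1 shared 3.5% with PBP2, and ESM1 shared 0 with the related lipase genes GLL22 and GLL23. The labels give no read length.

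Per kilobase of exon, TGG1 was the most highly expressed of the 6 genes by median, at 1404 CPM per kb in Samples 1 to 11 and 1173 in Samples 12 to 22. ESP came next at 1015 and 979 CPM per kb, and TGG2 after it at 249 and 323. ESM1 (64.1 and 21.3), PBP1 (56.7 and 46.6) and NSP1 (32.3 and 36.3) were lower, and in Samples 12 to 22 the ESM1 median was the lowest of the 6. These medians cover wide ranges for TGG2, ESP and ESM1, as the values by block show.

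**Figure D1:**
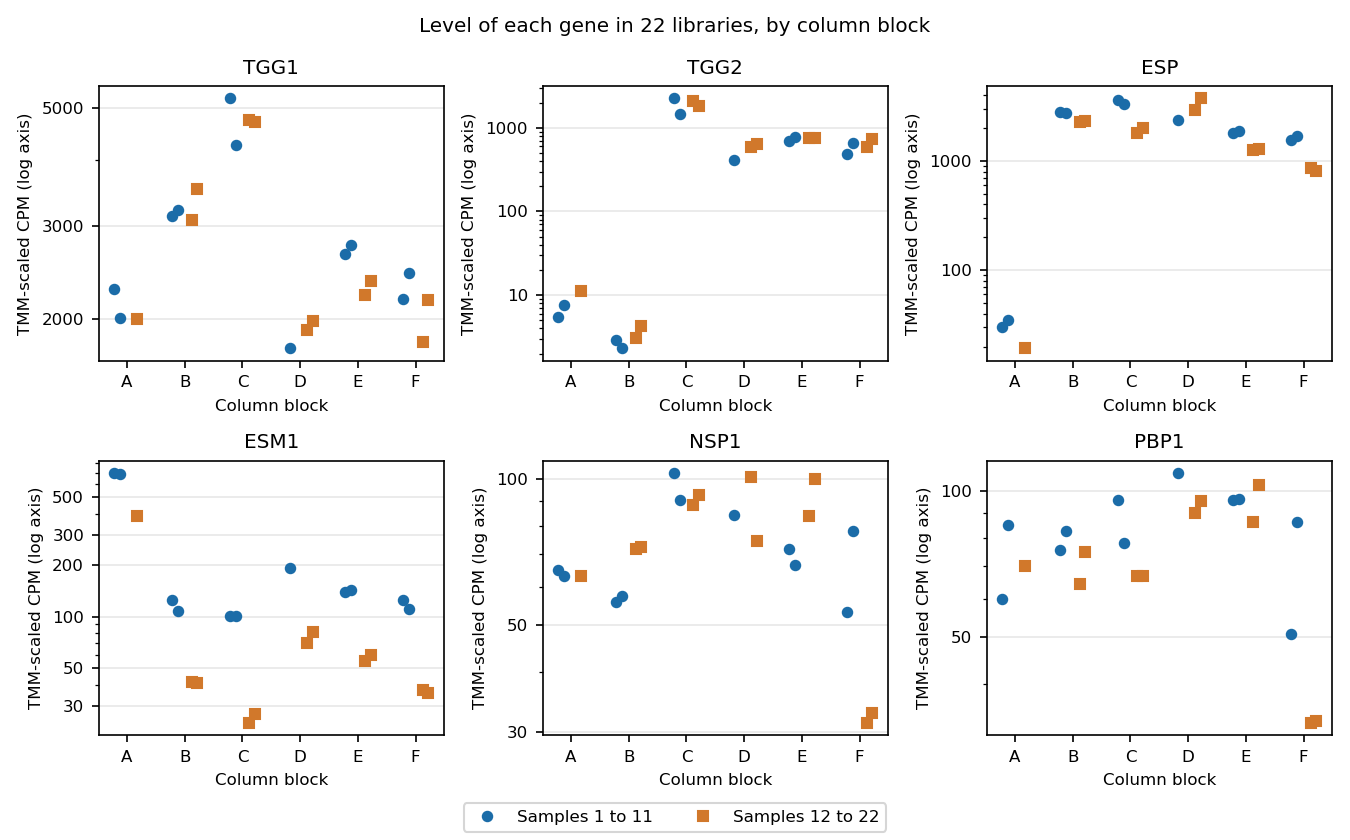
TMM-scaled CPM (log axis) of the 6 genes in each of the 22 libraries, by column block, with Samples 1 to 11 as circles left of Samples 12 to 22 as squares. TGG2 stood at 2.31 to 11.2 CPM in blocks A and B and at 408 to 2242 CPM in blocks C to F, ESP at 19.3 to 35.2 CPM in block A and at 815 to 3734 CPM elsewhere.

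TGG1, the more abundant leaf myrosinase, was high in every library and varied by block much more than by set. In block C it stood at 5219.8 and 4261 CPM in Samples 5 and 6, and at 4759 and 4716 CPM in Samples 15 and 16. In block B it stood at 3138 and 3213 CPM in Samples 2 and 4, and at 3077 and 3523 CPM in Samples 13 and 14. These 4 libraries of block C were above all 18 others, and those of block B were above all of blocks A, D, E and F.

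By mean log2 level, TGG1 was lowest in block D in both sets. It stood there at 1764 CPM in Sample 7 and at 1906 and 1983 CPM in Samples 17 and 18. In Samples 12 to 22 the means of blocks D, F and A were close, at 10.93, 10.96 and 10.97. Sample 21 of block F, at 1814 CPM, was below Samples 17 and 18. Block A had 2282 and 2009 CPM in Samples 1 and 3 and 2002 CPM in Sample 12. Block E had 2658 and 2759 CPM in Samples 8 and 9, and 2221 and 2359 CPM in Samples 19 and 20. Block F had 2182 and 2444 CPM in Samples 10 and 11, and 1814 and 2179 CPM in Samples 21 and 22. The levels of blocks A, D, E and F lay close together, with some overlap between them.

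The log2 level of TGG1 differed between Samples 1 to 11 and Samples 12 to 22 by 0.06 ± 0.15 (mean and SD over the 6 blocks), positive in 3 blocks and negative in 3. The SD between libraries of 1 block and set was 0.12, which is for single libraries and not for a mean over blocks. Of the 18149 tested loci, 8.34% had a smaller absolute difference between the sets, and the median locus differed by 0.42. From its highest to its lowest block, TGG1 ranged over 1.42 log2 units in Samples 1 to 11 and 1.28 in Samples 12 to 22, and 2655 and 4156 loci had a wider range in these sets.

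Guard cells are a site of TGG1 expression, and 6 markers of guard cells were measured beside it, all 6 of which passed the filter. Their summed level ran from 71.7 to 104 CPM in Samples 1 to 11 and from 52.6 to 76.9 CPM in Samples 12 to 22. In block C, where TGG1 was highest, the sum was 88.1 and 87.5 CPM in Samples 5 and 6 and 75.5 and 68.5 CPM in Samples 15 and 16, inside the range of the other blocks of each set. In whole seedlings, fewer cells of a type and less RNA per cell cannot be told apart. Leaf photosynthesis markers summed to between 35399 and 45159 CPM in Samples 1 to 11 and between 21898 and 37578 CPM in Samples 12 to 22. Of the 6 root markers, PLT1 and LRX1 had 1 count each over all libraries, IRT1 had 11 and COBL9 had 13. WOX5 was at 0.277 to 5.32 CPM, and the beta-glucosidase PYK10 was at 51.4 to 269 CPM and made up nearly all of the root sum of 93.3 to 271 CPM in Samples 1 to 11 and 52.3 to 225 CPM in Samples 12 to 22. The libraries are labelled as whole seedlings, and 4 of the 6 root markers were near 0. Flower markers summed to at most 2.01 CPM and seed markers to at most 0.568 CPM. The part of cell makeup in these levels was not tested.

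TGG2, the second leaf myrosinase, was low in blocks A and B and abundant in blocks C to F. Block A had 5.45 and 7.57 CPM in Samples 1 and 3 and 11.2 CPM in Sample 12. Block B had 2.91 and 2.31 CPM in Samples 2 and 4, and 3.04 and 4.24 CPM in Samples 13 and 14. Each of these 7 libraries had counts assigned to the gene, from 17 in Sample 4 to 81 in Sample 3. The exact Poisson 95% interval of Sample 4 was 1.35 to 3.70 CPM and covers counting error only. TGG1 had from 7957 counts (Sample 1) to 35693 counts (Sample 14) in the same libraries. Whether some TGG1 reads were counted as TGG2 was not tested.

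Block C had the highest TGG2 levels, at 2242 and 1458 CPM in Samples 5 and 6, and at 2065 and 1809 CPM in Samples 15 and 16. Block D had 408 CPM in Sample 7 and 597 and 636 CPM in Samples 17 and 18. Block E had 703 and 771 CPM in Samples 8 and 9, and 746 and 751 CPM in Samples 19 and 20. In block F the level was 490.1 and 661 CPM in Samples 10 and 11, and 584 and 729 CPM in Samples 21 and 22. The 15 libraries of blocks C to F did not overlap with the 7 of blocks A and B, and their nearest values were 36.3-fold apart. Within the high group, block C lay above blocks D, E and F by at least 1.89-fold.

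Between the sets, TGG2 differed by −0.35 ± 0.29 on the log2 scale, negative in 6 of 6 blocks but by only −0.02 in block E. The SD within a block and set was 0.24, and libraries of the 2 sets overlapped in blocks C, E and F. Between blocks, TGG2 ranged over 9.19 log2 units (584-fold) in Samples 1 to 11 and 8.88 (472-fold) in Samples 12 to 22. Only 6 and 8 of the 18149 loci had a wider range in these sets.

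As a share of both myrosinases per kilobase, TGG2 made up 0.229 to 0.536% in block A and 0.0691 to 0.116% in block B, against 17.8 to 29.4% in blocks C to F. TGG1 itself was lower in block A than in block C but higher in block B than in blocks D, E and F. Across the 22 libraries the log2 levels of TGG1 and TGG2 had a Pearson r of 0.12, given as a description over libraries that share blocks. The low TGG2 libraries are labelled Ba-1 (UV and mock) and Lip-0 (UV and mock), and the fourth Lip-0 library, Sample 15, is in the high group.

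**Figure D2:**
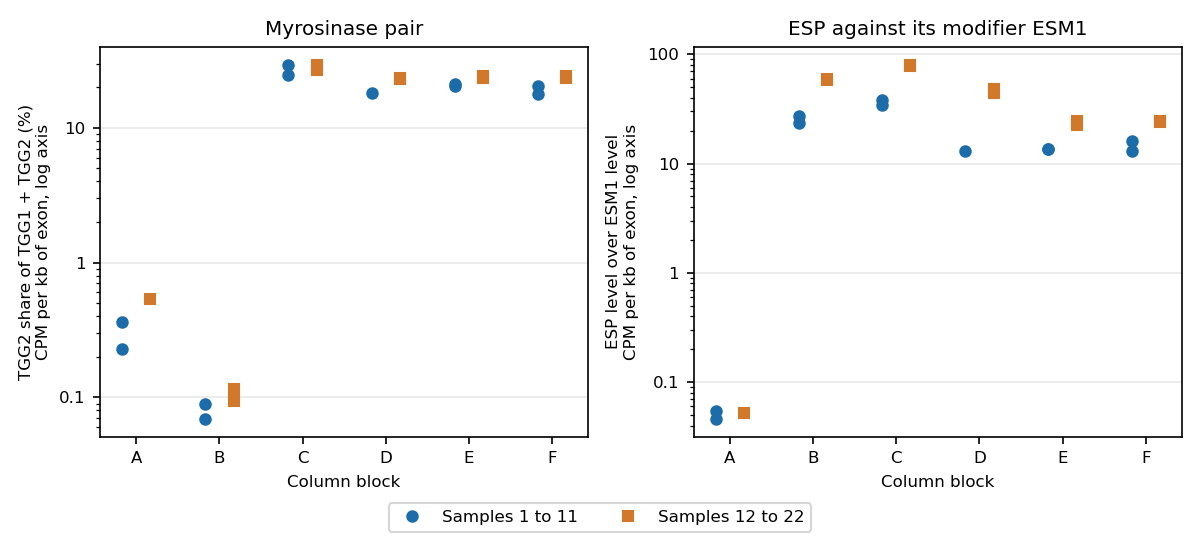
Left, TGG2 as a percentage of TGG1 plus TGG2, and right, ESP over ESM1, both from CPM per kilobase of exon on log axes, for each of the 22 libraries by column block, with Samples 1 to 11 as circles and Samples 12 to 22 as squares. TGG2 made up at most 0.536% in blocks A and B and at least 17.8% in blocks C to F, and ESP over ESM1 was below 1 in block A alone, at 0.046 to 0.0541.

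ESP, the specifier that steers breakdown to epithionitriles, was low in block A and high in every other block. Block A had 30.4 and 35.2 CPM in Samples 1 and 3 and 19.3 CPM in Sample 12. Block B had 2791 and 2765 CPM in Samples 2 and 4, and 2292 and 2340.4 CPM in Samples 13 and 14. The libraries labelled Ba-1 were thus divided, with UV replicate 1 and mock replicate 1 in the low group and UV replicate 2 and mock replicate 2 in the high group. The low groups of ESP and TGG2 overlap only in block A, since block B had high ESP and low TGG2.

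In block C, ESP stood at 3628 and 3301 CPM in Samples 5 and 6, and at 1818 and 1989.6 CPM in Samples 15 and 16. Block D had 2392 CPM in Sample 7, and 2949.8 and 3734 CPM in Samples 17 and 18. In block D, with 1 library in Samples 1 to 11, the first set was the lower, which held for no other block. Block E had 1789 and 1884 CPM in Samples 8 and 9, and 1265 and 1287 CPM in Samples 19 and 20. Block F had 1549 and 1704 CPM in Samples 10 and 11, and 870.3 and 815 CPM in Samples 21 and 22. The 19 libraries outside block A ran from 815 to 3734 CPM, and the nearest of them was 23.2-fold above the highest library of block A.

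The difference of ESP between the sets was 0.48 ± 0.53 on the log2 scale (mean and SD over 6 blocks), positive in 5 of 6 blocks, from −0.47 in block D to 0.95 in block F. The spread over blocks exceeded the mean difference, while the SD within a block and set was 0.11. Of all loci, 54.7% had a smaller absolute difference between the sets. Between blocks ESP ranged over 6.70 log2 units (104-fold) in Samples 1 to 11 and 7.39 (167-fold) in Samples 12 to 22, with 41 and 29 loci wider. In Samples 12 to 22 this range rests on Sample 12, the only library of block A there, and without it the range was 1.98.

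ESM1, the modifier that favours isothiocyanates, was highest where ESP was lowest, and it was the member with the largest difference between the sets. Block A had 694 and 683 CPM in Samples 1 and 3 and 390.4 CPM in Sample 12. The other libraries of Samples 1 to 11 stood between 101 CPM, in Samples 5 and 6 of block C, and 193 CPM, in Sample 7 of block D. The other libraries of Samples 12 to 22 stood between 23.8 CPM, in Sample 15 of block C, and 81.4 CPM, in Sample 18 of block D. Block A lay above the rest by at least 3.54-fold in Samples 1 to 11 and by 4.80-fold in Samples 12 to 22.

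Below block A, blocks D and E came next and block C was lowest by mean level in both sets. Block B had 125 and 108 CPM in Samples 2 and 4, and 41.6 and 41.1 CPM in Samples 13 and 14. Block E had 139 and 144 CPM in Samples 8 and 9, and 54.7 and 59.7 CPM in Samples 19 and 20. Block F had 125 and 110.2 CPM in Samples 10 and 11, and 37.4 and 35.7 CPM in Samples 21 and 22. In all 6 blocks every library of Samples 1 to 11 was above every library of Samples 12 to 22.

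ESM1 was higher in Samples 1 to 11 by 1.43 ± 0.39 log2 units (2.70-fold, mean and SD over 6 blocks), from 0.82 in block A to 1.97 in block C. The SD within a block and set was 0.09. The pooled ranges of the sets nevertheless overlapped, since Sample 12 at 390.4 CPM was above all of Samples 1 to 11 outside block A. A smaller absolute difference was seen at 88.2% of loci. The block means of PBP1 were also higher in Samples 1 to 11 in 6 of 6 blocks, but its libraries overlapped in blocks A and E. With every library of the first set above every library of the second in all 6 blocks, ESM1 was 1 of 4192 loci (23.1% of those tested), and 0 members were below in all 6 blocks, against 4228 loci (23.3%). The sets hold different labelled accessions and nearly equal numbers of UV and mock labels, and the set and the labelled accessions cannot be told apart.

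By block, ESM1 ranged over 2.77 log2 units (6.81-fold) in Samples 1 to 11 and 3.92 (15.2-fold) in Samples 12 to 22, where the range without Sample 12 was 1.56. A range of at least 8-fold between blocks in both sets was found for 2 of the 6 members, TGG2 and ESP, and for 361 of 18149 loci (1.99%), and ESM1 lay just under it in Samples 1 to 11. The blocks were chosen on measured values, so this count describes the members and supports nothing further. The ratio of ESP to ESM1 per kilobase was 0.046 to 0.0541 in block A, against 13 to 37.9 in the other blocks of Samples 1 to 11 and 22.7 to 80.3 in those of Samples 12 to 22. Over the 22 libraries the log2 levels of ESP and ESM1 had a Pearson r of −0.68, as a description that includes block A. Outside block A, Sample 18 had the highest ESP (3734 CPM) and the highest ESM1 (81.4 CPM) of Samples 12 to 22. In Samples 1 to 11 outside it, Sample 5 had the highest ESP (3628 CPM) with the lowest ESM1 level (101 CPM).

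**Figure D3:**
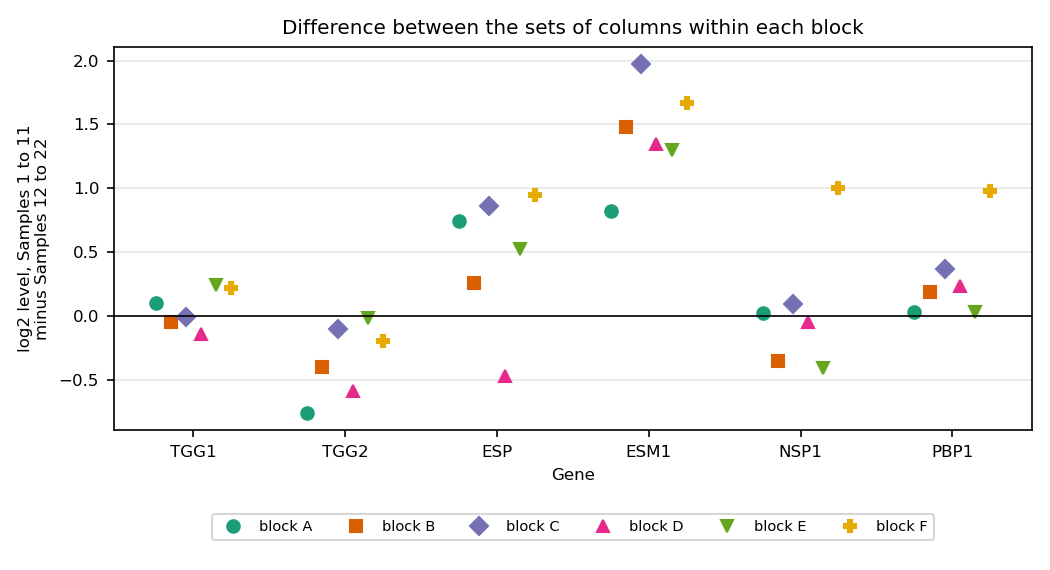
Difference in mean log2 level, Samples 1 to 11 minus Samples 12 to 22, within each of the 6 column blocks (1 symbol per block) for the 6 genes. ESM1 lay between 0.82 and 1.97 in all blocks, TGG1 between −0.14 and 0.24, and NSP1 and PBP1 near 1 in block F only.

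NSP1, which directs breakdown to simple nitriles, had a narrower range than ESP and was low in the second set of block F. In block F it stood at 53.1 and 78.2 CPM in Samples 10 and 11, and at 31.3 and 32.8 CPM in Samples 21 and 22. The other 9 libraries of Samples 12 to 22 ran from 63.1 CPM in Sample 12 to 101 CPM in Sample 17, and the nearest was 1.92-fold above Sample 22. In Samples 1 to 11 the levels ran from 53.1 CPM in Sample 10 to 103 CPM in Sample 5, with block C highest. NSP1 differed between the sets by 0.05 ± 0.51 on the log2 scale, from −0.41 in block E to 1.00 in block F, with 3 blocks positive. Its range between blocks was 0.77 log2 units in Samples 1 to 11 and 1.50 in Samples 12 to 22.

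NSP1 transcripts exceeded those of ESP per kilobase in block A alone. The ratio of NSP1 to ESP was 1.62 to 2.94 in the 3 libraries of block A and 0.018 to 0.0702 in the 19 others. NSP1 itself stood at 64.8 and 63.1 CPM in Samples 1 and 3 and at 63.1 CPM in Sample 12, inside the range of the other blocks.

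PBP1 followed NSP1 in block F. It stood at 50.7 and 86.3 CPM in Samples 10 and 11, and at 33.2 and 33.5 CPM in Samples 21 and 22. The other 9 libraries of Samples 12 to 22 ran from 64.4 CPM in Sample 13 to 103 CPM in Sample 20, again with a nearest value 1.92-fold above. In Samples 1 to 11, PBP1 ran from 50.7 CPM in Sample 10 to 109 CPM in Sample 7. The set difference was 0.30 ± 0.36 log2 units, from 0.03 in blocks A and E to 0.98 in block F, and the SD within a block and set was 0.23. PBP1 was also lowest of all 22 libraries in Samples 21 and 22. PYK10, the beta-glucosidase that PBP1 binds, was at 92.4 and 128 CPM in Samples 10 and 11, and at 51.4 and 52.3 CPM in Samples 21 and 22. NAI2, a protein needed to form endoplasmic reticulum bodies, was at 20.6 and 26.5 CPM in Samples 10 and 11, and at 14.0 and 11.6 CPM in Samples 21 and 22. The same 4 libraries, in this order, had 9.68, 13.7, 5.46 and 4.65 CPM of the lectin gene JAL33, and 18.3, 20.9, 9.82 and 9.19 CPM of JAL34. These 4 genes were lower in the second set of block F than in the first. NAI2 and PYK10 were among the loci most like PBP1 over these same libraries, and JAL33 was the most like NSP1. Their low levels there are therefore not separate evidence. The share of all loci lower in the second set of block F is not given here.

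The variance of the log2 level over the 22 libraries was described by block and by set for each gene. Both the members and the blocks were chosen from measured values of these libraries. The shares below describe the members, and their distance from the medians over all loci supports nothing further. Column block, with 5 degrees of freedom, held 94.6% of the variance of TGG1, 99.5% of TGG2 and 97.5% of ESP, against 67.2% of ESM1, 63.1% of NSP1 and 61.6% of PBP1, and a median of 32.3% over all loci. The set, with 1 degree of freedom, held 40.1% of the variance of ESM1 and 9.32% of that of PBP1, but 0.752% for TGG1, 1.44% for TGG2, 0.0593% for ESP and 0.042% for NSP1, with a median of 39.1% over all loci. ESM1 was the member nearest to the median locus in its set share.

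Labelled accession, with the same 5 degrees of freedom as block, held 19.9% of the variance of TGG1, 76.9% of TGG2, 26.8% of ESP, 50.4% of ESM1, 46.3% of NSP1 and 39.2% of PBP1, less than the block in each of the 6, while over all loci its median was 58.1%. Each labelled accession lies within 1 set, so its share includes that of the set, while the blocks cross the sets. The shares of block and labelled accession are therefore not like measures. Without Sample 20, the 1 T1080 mock library, labelled accession held 86.2% for NSP1 and 77.5% for PBP1, above block shares of 64.1 and 59.9%. Without Sample 12 it held 71.5% for ESM1, above a block share of 64.3%. Without Sample 7, 12 or 16 the accession share of TGG1 was 34.9, 29.5 or 33.1%. Labelled treatment held between 0.187% (TGG2) and 8.34% (NSP1), with a median of 0.727% over all loci. Its share for TGG1 was 6.02% and reached 13.3% without Lip-0 UV replicate 2, and that for ESM1 was 2.43% and reached 9.07% without Ba-1 UV replicate 1. Block and set together, with 11 degrees of freedom, held 99.8% of the variance of TGG2 and ESM1, 99.9% of ESP and 97.2% of TGG1. The 12 labelled groups, with the same 11 degrees of freedom, held 83.9% for TGG2, 64.6% for ESM1, 37.7% for ESP and 63% for TGG1. For NSP1 the order was the other way, with 92.8% by block and set and 95.1% by labelled group. PBP1 had 88% and 84.9%. The medians over all loci were 93.5% by block and set and 77.0% by labelled group, so high shares by block and set were usual in this table.

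**Figure D4:**
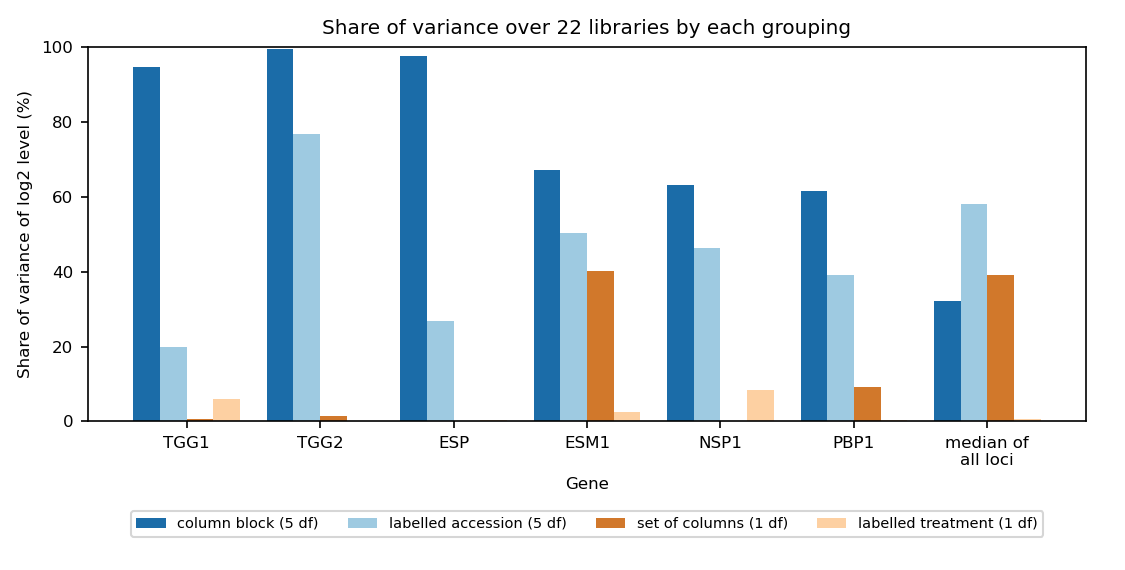
Share (%) of the variance of log2 level over 22 libraries held by column block, labelled accession (5 degrees of freedom each), set of columns and labelled treatment (1 degree of freedom each), for the 6 genes and as the median over 18149 loci. Column block held more than labelled accession in each of the 6 genes (94.6 against 19.9% for TGG1), while the median locus had 32.3 against 58.1%. Genes and blocks were chosen from measured values of these libraries.

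The labelled contrasts ask which genes differ between UV and mock seedlings and whether this depends on the accession. They were fitted with edgeR on the 12 labelled groups, with p-values adjusted over all 18149 loci. Since most labelled groups join libraries of different blocks, the spread used in these tests includes differences between blocks. For the mean UV effect over 6 accessions, 0 of the 6 members were called, with a background of 0% (0 loci by edgeR, 504 at an unadjusted p under 0.05, and 2 by DESeq2). The member values were −0.23 ± 0.17 (log2 ± SE) for TGG1, 0.82 ± 0.66 for TGG2, −0.08 ± 0.81 for ESP, −0.43 ± 0.44 for ESM1, −0.27 ± 0.07 for NSP1 and −0.10 ± 0.11 for PBP1, each with an edgeR adjusted p of 1. Several of these values turned on 1 library. TGG2 was at −0.50 without Lip-0 UV replicate 2, and ESP ran from −0.97 without Ba-1 UV replicate 2 to 0.90 without Lip-0 mock replicate 2. ESM1 was at −0.03 without Lip-0 mock replicate 1, and NSP1 and PBP1 were at 0.01 and 0.21 without T1080 mock replicate 1.

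Labelled UV and mock libraries of 1 accession stood in the same block and set in 5 cases, Ba-1 in blocks A and B, Lip-0 in block B, Mh-0 in block D and Got-7 in block F, with 1 library each. These pairs were compared after the data were seen and with no test. ESP was at 35.2 CPM with UV against 30.4 CPM in mock in the block A pair of Ba-1, and at 2765 against 2791 CPM in its block B pair. Over the 5 pairs the UV minus mock log2 difference ran from −0.18 to 0.20 for TGG1, from −0.28 to 0.44 for TGG2, from −0.01 to 0.34 for ESP and from −0.21 to 0.22 for ESM1. NSP1 ran from −0.43 in Mh-0 to 0.55 in Got-7, higher with UV in 3 of 5 pairs. PBP1 was higher with UV in 5 of 5 pairs, by 0.08 to 0.76. For TGG2, ESP and ESM1, every pair difference was smaller than the range from the highest to the lowest block. In the first and second set that range was 9.19 and 8.88 log2 units for TGG2, 6.70 and 7.39 for ESP, and 2.77 and 3.92 for ESM1. The same held for TGG1 and for NSP1, whose 0.55 in Got-7 stood against 0.77 in the first set. It did not hold for PBP1, whose 0.76 in Got-7 was above its first-set range of 0.72. The second-set range of PBP1 was 1.49. Some blocks lay closer together than the libraries of a pair. In the second set TGG2 had mean log2 levels of 9.55 in block E and 9.35 in block F. In the first set ESP had 10.84 in block E and 10.67 in block F, and ESM1 had 6.86 in block B and 6.88 in block F.

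**Figure D5:**
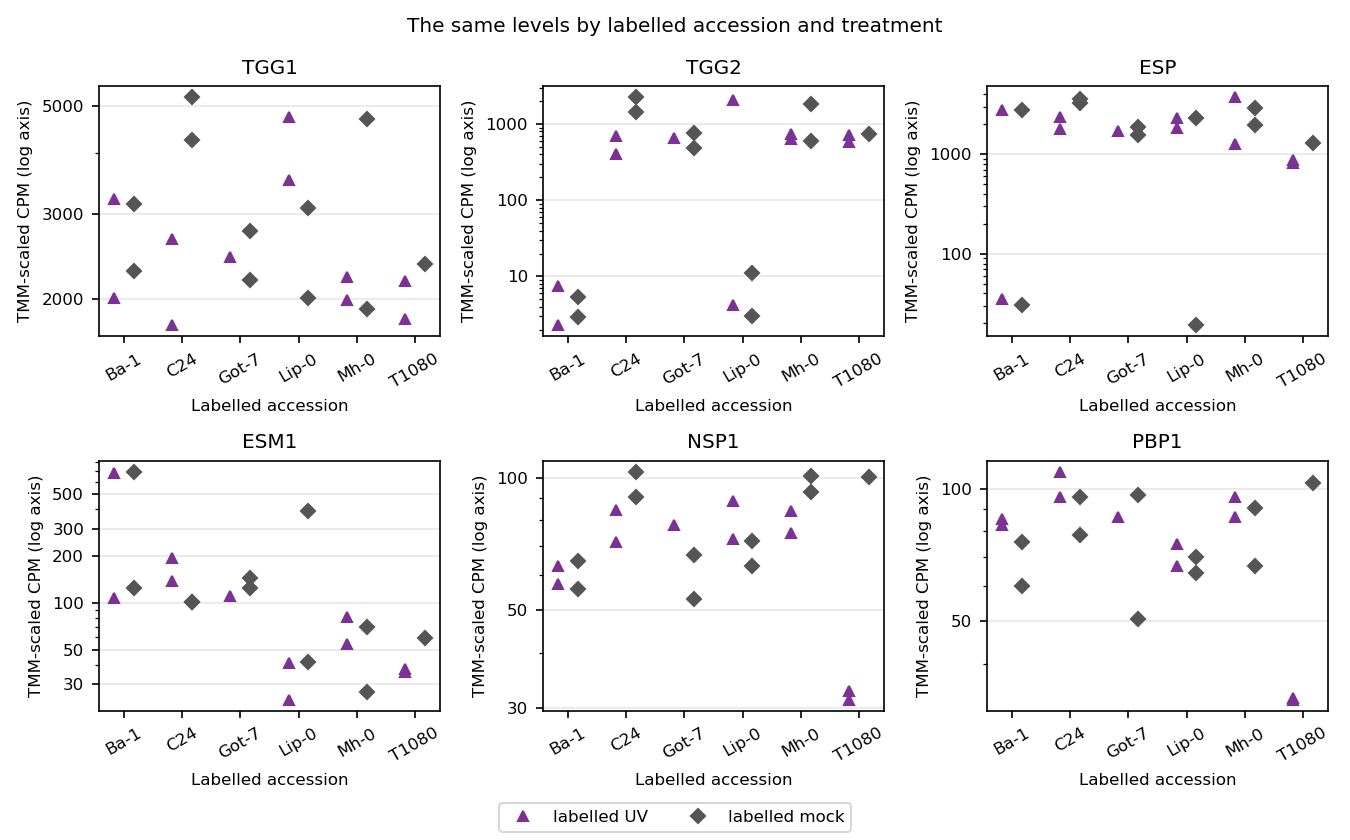
TMM-scaled CPM (log axis) of the 6 genes in the same 22 libraries by labelled accession, with libraries labelled UV (triangles) left of those labelled mock (diamonds). ESP lay at 35.2 and 2765 CPM in Ba-1 UV and at 30.4 and 2791 CPM in Ba-1 mock, so that replicates of 1 label differed more than the labels did.

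NSP1 was the 1 member that edgeR called in a UV contrast, and DESeq2 also called PBP1 and TGG2, as given below. In T1080 it was at 31.3 and 32.8 CPM in the 2 libraries labelled UV, and at 100.3 CPM in the library labelled mock. The UV minus mock log2 value was −1.65 ± 0.18 (SE) with an edgeR adjusted p of 0.00867, and NSP1 was the only 1 of 18149 loci called by edgeR in this contrast (0.00551%). The 2 UV libraries, Samples 21 and 22, are those of block F described above, and the mock library, Sample 20, belongs to block E, where Sample 19, labelled Mh-0 UV, had 84.0 CPM. Treatment and block cannot be told apart in this contrast. The call was lost without either UV library, at −1.61 (adjusted p = 0.271) without UV replicate 1 and −1.68 (adjusted p = 0.181) without UV replicate 2. PBP1 did not pass in edgeR, at 33.2 and 33.5 CPM with UV against 103 CPM in mock, a log2 value of −1.63 ± 0.28 (edgeR adjusted p = 0.2, DESeq2 adjusted p = 0.000549, among 47 loci or 0.259% called by DESeq2). Without Got-7 mock replicate 1 or 2, libraries of another accession that enter the shared estimate of spread, it was called with an edgeR adjusted p of 0.00523 or 0.00522, among 46 loci in each case.

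In Lip-0 the TGG2 levels were 4.24 and 2065 CPM in the libraries labelled UV, and 11.2 and 3.04 CPM in those labelled mock. The log2 value of 7.21 ± 1.88 had an edgeR adjusted p of 0.871, with 0 loci called (721 at an unadjusted p under 0.05), while DESeq2 called TGG2 with an adjusted p of 0.00236 among 2 loci (0.0110%). The value rests on UV replicate 2, Sample 15 of block C. Without that library it was −0.71 (edgeR adjusted p = 1), and without UV replicate 1 it was 8.21 (edgeR adjusted p = 0.0211). ESM1 in Lip-0 stood at 41.1 and 23.8 CPM with UV and at 390.4 and 41.6 CPM in mock, a log2 value of −2.74 ± 1.07 (edgeR adjusted p = 0.871). Without Sample 12, the mock library of block A, it was −0.36.

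In C24, where 49 loci were called (0.270%), TGG1 was at 1764 and 2658 CPM with UV and at 5219.8 and 4261 CPM in mock. The UV and mock libraries did not overlap, but the log2 value of −1.10 ± 0.39 did not pass (edgeR adjusted p = 0.204). The share of all loci without overlap in C24 is not given here. The 49 calls fell to 0 without C24 UV replicate 2, to 3 without UV replicate 1 and to 1 without either mock library. The C24 mock libraries are block C and the C24 UV libraries are in blocks D and E. In Ba-1, Got-7 and Mh-0, 0 members passed and 0 loci were called by edgeR (311, 305 and 1750 at an unadjusted p under 0.05), with 2, 1 and 4 called by DESeq2.

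For the difference of UV effects between accessions, 0 of 6 members passed with edgeR, with 0 loci called and 1619 at an unadjusted p under 0.05. The smallest adjusted p among the members was 0.22, for NSP1. DESeq2 called 352 loci there (1.94%), NSP1 (adjusted p = 2.59e-09) and PBP1 (adjusted p = 0.00147) among them. For the difference of mean levels between labelled accessions, 3 of 6 members passed, NSP1 (edgeR adjusted p = 0.00122), TGG2 (0.00398) and ESM1 (0.0213), near the background of 56.0% of all loci. ESM1 was lost without Ba-1 UV replicate 1 (edgeR adjusted p = 0.153) or Ba-1 mock replicate 1 (edgeR adjusted p = 0.147). TGG1, ESP and PBP1 had edgeR adjusted p of 0.443, 0.935 and 0.0717, and PBP1 passed without Got-7 mock replicate 1 or 2 (edgeR adjusted p = 0.00762 or 0.0082) and with DESeq2 (adjusted p = 0.0345). In this contrast ESP did not pass although its block range was among the widest of the table.

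A list of 36 other loci of glucosinolate breakdown and transport was followed beside the members. The table held 34 of them, and 26 passed the filter. In the UV contrasts and in the difference of UV effects 0 of the 26 passed with edgeR, and their median mean UV effect was 0.03. For the difference of mean levels between labelled accessions 13 of 26 passed, where 56.0% of all loci did. In Samples 1 to 11 against Samples 12 to 22, 3 of the 26 were higher in all 6 blocks and 4 were lower in all 6, where 23.1 and 23.3% of all loci did so. The median set difference of the 26 was 0.07 log2 units, against 0.18 for the 6 members and 0.00949 for all loci.

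Among other glucosinolate-cleaving enzymes, the root myrosinases TGG4 and TGG5 had 1 and 4 counts over all libraries, and the TGG6 locus had 4. PEN2, an atypical myrosinase of pathogen defence, was lower in Samples 1 to 11, at 132 to 219 CPM, against 283 to 641 CPM in Samples 12 to 22, a log2 difference of −1.45. PEN3, the transporter that acts with PEN2, was also lower there by −1.41. BGLU18, a beta-glucosidase of endoplasmic reticulum bodies, had at least 8-fold ranges between blocks in both sets, running from 79.6 to 2109 CPM in Samples 1 to 11 and from 67.4 to 837 CPM in Samples 12 to 22. Within block A it was at 509 and 2109 CPM in Samples 1 and 3, so that it also varied within a block.

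Of the lipases related to ESM1, 0 of 4 were higher in Samples 1 to 11, with a median difference of −0.55, where ESM1 itself had 1.43. GLL23 was at 16.9 to 62.3 CPM in Samples 1 to 11 and 15.7 to 65.2 CPM in Samples 12 to 22. GLL22 was highest in Samples 15 and 16 of block C, at 17.9 and 13.1 CPM, where Samples 5 and 6 of the same block had 1.87 and 2.72 CPM. AT1G54020 was at most 7.17 CPM in Samples 1 to 11 and 4.07 CPM in Samples 12 to 22.

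The myrosinase-binding lectin gene MBP1 had the widest range over libraries of the 26, at 9.07 log2 units. It stood at 312 and 645 CPM in Samples 1 and 3 of block A and at 3.89 and 0.706 CPM in Samples 5 and 6 of block C. In the second set it stood at 72.6 CPM in Sample 12 of block A and at 0.702 and 0.898 CPM in Samples 15 and 16 of block C. Block C, its lowest by mean level in both sets, had the highest levels of both TGG1 and TGG2. The related MBP2 ran from 0.544 to 45.7 CPM in Samples 1 to 11 and from 1.21 to 14.7 CPM in Samples 12 to 22.

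Nitrilases, which convert nitriles to acids, differed among themselves. NIT1 was higher in Samples 1 to 11, at 335 to 723 CPM against 218 to 526 CPM, a log2 difference of 0.69. NIT4 was lower, at 0.706 to 38.3 CPM in Samples 1 to 11 against 20.6 to 138 CPM in Samples 12 to 22, a log2 difference of −3.57. NIT2 was at 15.8 and 12.0 CPM in Samples 2 and 3, which lie in blocks B and A, and at most 2.49 CPM in the other 20 libraries, so that its pattern followed neither block nor set. NIT3 ran from 1.60 to 28.6 CPM in Samples 1 to 11 and from 2.39 to 10.1 CPM in Samples 12 to 22.

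FAMA, the factor that specifies guard cells and myrosin cells, stood at 20.0 to 29.8 CPM in Samples 1 to 11 and at 12.6 to 18.8 CPM in Samples 12 to 22, with no overlap. FAMA was higher in Samples 1 to 11 in all 6 blocks, as were 23.1% of all loci. That share is for separation within blocks. The share of all loci with no overlap between the whole sets is not given here. The guard cell marker SLAC1 went the other way, with a median of 5.67 CPM in Samples 1 to 11 and 7.54 CPM in Samples 12 to 22. TGG1, which is expressed in guard cells and myrosin cells, had a set difference of 0.06 where FAMA had 0.64. The glucosinolate importer GTR1 was higher in Samples 1 to 11, at 65.0 to 92.4 CPM against 23.3 to 51.7 CPM, and its homologue GTR2 was lower, at 62.3 to 105 CPM against 83.0 to 119 CPM.

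The loci most like each member over the 22 libraries were ranked by Pearson correlation of log2 levels, as a description over libraries that share blocks and sets. For TGG1 they were APS4, an ATP sulfurylase (r = 0.928), AT2G28460 (0.920) and AT5G37560 (0.914). For TGG2 they were AT5G10400 (0.950), AT3G43520 (0.940) and AT4G39930 (0.897), and for ESP they were AT5G42530 (0.964), CYP77A5P (0.959) and AT5G47250 (0.945). For ESM1 they were AT1G28580 (0.943), AT5G45700 (0.926) and AT1G61960 (0.922). For NSP1 they were JAL33 (0.824), PBP1 (0.798) and AT5G51370 (0.782), and for PBP1 they were NAI2 (0.864), AT3G23740 (0.849) and PYK10 (0.833). NSP1 and PBP1 were the pair of members with the highest correlation, while the nearest loci of the other 4 members were outside the breakdown list.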

How the data were processed

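The authors deposited raw counts per locus as whole numbers. The submitters' processing notes name TAIR9 and TAIR10 as builds and TopHat and FastQC as tools, without versions or roles. The counting program, its annotation and its use of strand are not stated in the labels or file headers. Reads of accessions counted on a reference of another accession can be lost where sequences differ, and this was not tested. Columns were matched to samples by number (0 unmatched). Of 24185 loci, 23847 matched the RefSeq table of TAIR10.1, from which positions, exon lengths and promoters were taken, and 1551 had 0 counts in every library. TGG3 and ICE1 of the breakdown list were not analysed here.

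The labelled contrasts were fitted in R 4.3.3 with edgeR 4.0.16 (TMM factors, robust quasi-likelihood F test) as 12 group means over 22 libraries, with Benjamini-Hochberg adjustment over 18149 loci in each of 9 contrasts and calls at an adjusted p under 0.05. A group of 1 library was assumed to vary like the others. The biological coefficient of variation was 26.7%. On counts simulated for 11 against 11 libraries, the fit recovered 93 of 100 changes of 2-fold and 99 of 100 of 4-fold. It made 12 false calls among 17549 unchanged loci. The simulated libraries had no differences between accessions, blocks or sets. These rates therefore do not tell how many changes the fit would find in the real libraries or in contrasts within 1 accession. DESeq2 1.42.0, RLE size factors, no filter, a replicate block and each library left out were the alternatives. Column blocks and sets were described in Python 3.11.15 from log2(TMM-scaled CPM + 0.5), with CPM from library totals, RLE scaling, pseudocounts of 0.1 and 2 CPM and left-out libraries as alternatives.

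The members, the blocks and the gene lists were chosen with earlier results of these data known. Named beside the 6 members were the 3 loci most like each, listed loci called in a labelled contrast, the 8 listed loci of widest range over libraries, and members called by DESeq2. Further listed loci (PYK10, GTR2, the classical myrosinases) were named after their values were seen. Marker lists were guard cell, leaf photosynthesis, root, flower and seed.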

Additional observations from a re-analysis of the deposited data

Results flagged for a closer look

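TGG1 was higher in both libraries labelled UV than in both labelled mock in Lip-0, and lower in both in C24, and the UV effects differed by 1.81 log2 units. ESM1 showed the opposite arrangement, with UV above mock in C24 and below it in Lip-0, and a difference of 3.46 log2 units. This rests on Sample 12, since the ESM1 value in Lip-0 was −2.74 with all libraries and −0.36 without Lip-0 mock replicate 1. NSP1 stood above mock with UV in Lip-0 and below it in C24, with a difference of 0.57. These differences between pairs of accessions were not tested, and the share of all loci that separate UV from mock in this way is not given here. The edgeR F test over all 6 accessions gave adjusted p of 0.588 for TGG1, 0.711 for ESM1 and 0.22 for NSP1. In C24 the UV libraries are in blocks D and E and the mock libraries in block C, so treatment and block cannot be told apart there. In Lip-0 the UV libraries are in blocks B and C and the mock libraries in blocks A and B. Within block B, Lip-0 had 3523 CPM of TGG1 with UV against 3077 in mock, 41.1 against 41.6 CPM of ESM1, and 72.6 against 71.8 CPM of NSP1, with 1 library each.

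Within blocks, TGG1 was higher in all libraries of Samples 1 to 11 than in those of Samples 12 to 22 in block E and lower in block D, with log2 differences 0.38 apart. ESP was higher in Samples 1 to 11 in block F and lower in block D, 1.42 apart. NSP1 was higher in Samples 1 to 11 in block F and lower in block E, 1.41 apart. These differences were not tested, and block D has 1 library in Samples 1 to 11.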

How the results depend on the processing

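Of the member values in labelled contrasts, 1339 of 1392 alternatives kept their direction and their side of the threshold. For contrasts within 1 accession, most alternatives left out a library of another accession. The count therefore says little about how stable these values are. The log2 value took the other sign in 39 alternatives, 30 of them with a library left out, and in 0 of these was it called before or after. The set differences of the members moved by less than the spread between libraries in 154 of 156 alternatives, the block ranges in 300 of 312 and the variance shares in 592 of 624. DESeq2 called 639 loci in C24, 47 in T1080, 4 in Mh-0, 2 in Lip-0, 1 in Got-7, 2 in Ba-1, 2 for the mean UV effect and 352 for the difference of UV effects, and the cause was not tested. With a pseudocount of 2 CPM the block range of TGG2 was 8.62 in Samples 1 to 11 and 8.43 in Samples 12 to 22, since a larger pseudocount shrinks ranges of low values.

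Deviations of samples with the same replicate number had correlations of 0.597 in Ba-1, −0.000713 in C24, −0.336 in Lip-0 and −0.281 in Mh-0, so the numbers were not taken to pair the samples. ESP took the other sign with the replicate block for the mean UV effect (0.30), in Ba-1 (0.09) and in Mh-0 (−0.16), and in Mh-0 also with RLE factors (−0.01) and with DESeq2 (−0.01). In Got-7, TGG1 and ESP stood at 0.00 with RLE factors and with DESeq2. With the replicate block, 343 loci were called in C24 and 1 for the difference of UV effects.

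With each library left out in turn, edgeR called 0 to 271 loci in C24, 0 to 46 in T1080, 0 to 486 in Mh-0, 0 to 15 in Lip-0, 0 to 6 in Got-7, 0 to 28 in Ba-1, 0 to 7 for the mean UV effect and 0 to 10 for the difference of UV effects. The count in Mh-0 reached 486 without Mh-0 mock replicate 2, and that in Ba-1 reached 28 without Ba-1 UV replicate 2. In the same alternatives the set difference ran from 0.43 to 0.67 for ESP and from 1.41 to 1.55 for ESM1. The block range in Samples 1 to 11 ran from 1.14 to 1.56 for TGG1, from 8.88 to 9.50 for TGG2 and from 0.54 to 1.10 for PBP1. In Samples 12 to 22 it ran from 1.98 to 7.56 for ESP and from 1.56 to 4.01 for ESM1, the lowest values without Sample 12. Block A has 1 library in Samples 12 to 22 and block D has 1 in Samples 1 to 11, which limits what these libraries can show. Values of TGG2 in blocks A and B rest on 17 to 81 counts per library.

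The log2 UV effects that changed sign as libraries were left out had these ranges. For the mean effect, TGG2 ran from −0.50 to 1.02, ESP from −0.97 to 0.90, NSP1 from −0.40 to 0.01 and PBP1 from −0.16 to 0.21. In Ba-1, TGG1 ran from −0.40 to 0.25, TGG2 from −0.77 to 0.96, ESP from −5.29 to 5.53, ESM1 from −1.92 to 1.70 and NSP1 from −0.09 to 0.14. In Got-7, TGG1 ran from −0.16 to 0.15, TGG2 from −0.21 to 0.42, ESP from −0.13 to 0.13 and PBP1 from −0.15 to 0.76. In Lip-0, TGG2 ran from −0.71 to 8.41, ESP from −0.14 to 6.75 and PBP1 from −0.01 to 0.16. In Mh-0, TGG1 ran from −1.17 to 0.14, TGG2 from −1.39 to 0.21, ESP from −0.97 to 0.60 and ESM1 from −0.04 to 1.34.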
